A study of Mus musculus with 3 samples.

Results

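The Usp17-like genes, also called Dub genes, encode a mouse family of deubiquitinating enzymes whose RNA was measured in male ES cells with and without Nr0b1 (also known as Dax1). Members were taken by name: probes of the array whose gene name starts with Usp17l, is Usp-ps, or is Dub followed by a digit. This gave 8 probes under 6 gene names, of 55681 probes and 34797 names on the array, and all 8 passed the filter on dim probes, as did 31171 probes in all. Some names on the array are older than those of RefSeq: Dub1 is Usp17la, Dub1a is Usp17lb, Usp17l5 is Usp17lc, Dub2a is Usp17ld, Dub3 is Usp17le, and Usp-ps is the pseudogene Usp17le-ps. The family was chosen on its rise in ES cells after 4 days of Nr0b1 deletion (+Tx) over undeleted ones (−Tx), with those values already known, so that comparison is given here only as a description.

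Deubiquitinating enzymes remove ubiquitin from proteins, and the Usp17-like enzymes are cysteine proteases of the ubiquitin-specific protease class. The first mouse members were found as genes that blood cell lines switch on rapidly after a cytokine, Dub1 after interleukin-3 and Dub2, the gene named Usp17l5 on the array, after interleukin-2, and the human relatives USP17 and DUB3 are known for acting on regulators of the cell cycle and of signalling. In the mouse, Usp17-like transcripts are also known among those of the 2-cell embryo and of the rare ES cells that resemble it.

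RNA was measured on 9 arrays of 1 colour (Cy3), 3 for each of 3 groups of ES cells. Nr0b1 KO/Y ES cells were established lines from which exon 2 of Nr0b1 had been removed, Nr0b1 fl-/Y +Tx ES cells had been cultured for 4 days with 4-hydroxy tamoxifen (Tx), which activates the Cre recombinase, and Nr0b1 fl-/Y −Tx ES cells carried the same loxP-flanked exon and had no Tx. All groups descended from EB5 cells, a male derivative of E14tg2a, and carried constitutive MerCreMer and Egfp transgenes inserted by piggyBac under the CAG promoter. Cells without MerCreMer, or with Tx and an intact Nr0b1 allele, were not analysed here. Clones had been picked at each step, and which lines, of the independent pairs that the study made, were put on the arrays is not given in the sources used here. The study calls the samples biological triplicates. Whether they were separate cultures is not given, so p-values measure the spread between these arrays. Cultures were kept with LIF, with or without fibroblast feeder cells.

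Levels are log2 values of the processed intensity relative to the 75th percentile of the same array, so that 0 stands for that percentile and a difference of 1 is 2-fold. Levels of different probes cannot be set against each other, because probes differ in how brightly they hybridise, and only differences between groups are compared below. A probe is called higher or lower where it changed by over 2-fold with an adjusted p under 0.05 from limma, fitted over all 31171 probes and 9 arrays and adjusted by the Benjamini-Hochberg method. From 28793 to 32484 probes stood well above background on an array, and 0 spots were saturated. The RNA is that of whole cultures, in which more cells that express a gene and more RNA per cell cannot be told apart.

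The labels were checked on Nr0b1 itself. Its log2 level was -6.37, -6.19 and -6.22 on the KO/Y arrays (not well above background), -2.58, -2.66 and -2.42 on the +Tx arrays, and 4.02, 4.19 and 4.10 on the −Tx arrays. Nr0b1 was at least 357-fold lower in KO/Y than in −Tx ES cells (adjusted p = 2.47e-10 by limma, the limit being the dimmest signal still well above background on an array), and 101-fold lower in +Tx than in −Tx ES cells (adjusted p = 1.01e-08). One slide held the 3 KO/Y arrays with 2 of the +Tx arrays, and another held the remaining +Tx array with the 3 −Tx arrays, so for KO/Y over −Tx the slide and the group cannot be told apart without the +Tx arrays. Markers of ES cells were present: 5 of 5 (Pou5f1, Nanog, Sox2, Esrrb, Zfp42) were well above background on all arrays. In KO/Y over −Tx 0 were called by limma (0 higher and 4 lower at an unadjusted p under 0.05). Whatever the fold, 3 of the 5 fell with an adjusted p under 0.05, a limit that 14120 of all 31171 probes met. The largest fall was that of Esrrb (log2 fold change -0.82, adjusted p = 1.37e-05). The summed level of the 5, in multiples of the scaling percentile, was 171 to 174 on −Tx arrays. It was 140 to 150 on +Tx arrays and 110 to 126 on KO/Y arrays.

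The probes are 60 bases long, and their sequences are shown because the family members are near copies of each other, which decides how far a probe can be read as 1 gene. In the first 2 lines below, capitals mark the bases at which the Dub2a and Usp17l5 probes differ from each other, and in the line for Dub1a those at which it differs from Dub2a over the 59 bases of their best overlap. Numbers after a gene name are the position of the probe, in bases, on its transcript in the array annotation, and both Usp17l5 probes were designed on different transcript records.
Dub2a: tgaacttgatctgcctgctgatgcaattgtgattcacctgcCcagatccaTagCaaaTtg
Usp17l5 at 1428: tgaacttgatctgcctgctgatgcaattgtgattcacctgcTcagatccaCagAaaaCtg
Dub1a: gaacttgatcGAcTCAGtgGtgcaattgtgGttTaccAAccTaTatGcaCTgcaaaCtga
Dub3: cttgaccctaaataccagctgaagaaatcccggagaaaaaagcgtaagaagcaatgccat

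The probes of Dub2a and of Usp17l5 at 1428 were identical at 93.3% of positions. With the base of Dub2a first and positions counted from 1 at the 5′ end of the probe, they differed by C42T, T51C, C54A and T58C. Dub1a differed from Dub2a at 17 of 59 bases, and the Dub3 probe, shown with no capitals, overlapped no other member at more than 45.0% identity. A second set of near copies lies further along the transcripts. For these, 30 bases of each probe are shown, with capitals where the 3 are not all the same.
Usp-ps: ttcttTgtgtgtgatcaacaGttctttgAC
Usp17l5 at 2328: ttcttTgtgtgtgatcaacaAttctttgAC
Dub1 at 2573: ttcttAgtgtgtgatcaacaGttctttgGT

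Over their whole length, the probes of Usp17l5 at 2328 and Usp-ps were identical at 96.7% of positions and differed by C4A and A46G, with the base of Usp17l5 first. Each was identical to Dub1 at 2573 at 91.2% of 57 overlapping bases. A run of 20 bases shared with a probe outside the family, on either strand, was found for 0 of the 8 probes. The values of Usp-ps, Usp17l5 at 2328 and Dub1 at 2573 can therefore include RNA of one another, as can those of Dub2a and Usp17l5 at 1428, and how much each takes up was not tested. Dub1 at 2263, the remaining probe, shared no run of 20 bases with any other member, and its best overlap with any of them was 46.3% identical.

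By the array annotation, which uses mouse build mm9, all 8 probes lie on chromosome 7 within 1610 kb. Dub2a is at chr7:110398772-110398831 on the minus strand, and the Usp17l5 probes are at chr7:110567420-110567479 and chr7:110568320-110568379 on the plus strand. The other members follow after 1230 kb: Usp-ps at chr7:111802099-111802158 on the plus strand, Dub3 at chr7:111917188-111917247 and Dub1a at chr7:111988826-111988885 on the minus strand, and the Dub1 probes at chr7:112010796-112010855 and chr7:112011106-112011165 on the plus strand. Whether each probe falls in coding sequence or in a UTR was not analysed here.

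RefSeq promoter windows, 250 bases before to 50 after the annotated start on GRCm38.p6, were given for 4 members. Each stretch below holds 80 bases, with capitals at the CCAAT box, which stands here in reverse as ATTGG, and at the TATA-like element after it. They are shown because the block is nearly the same in these 4, and whether it bears on their levels was not tested. No promoter was used here for Usp17le and Usp17le-ps.
Usp17ld (Dub2a), chr7:103252591-103252670, minus strand: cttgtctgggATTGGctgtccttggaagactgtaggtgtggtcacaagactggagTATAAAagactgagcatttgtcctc
Usp17lc (Usp17l5), chr7:103416553-103416632, plus strand: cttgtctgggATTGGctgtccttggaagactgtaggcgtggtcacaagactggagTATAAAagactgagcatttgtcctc
Usp17lb (Dub1a), chr7:104842590-104842669, minus strand: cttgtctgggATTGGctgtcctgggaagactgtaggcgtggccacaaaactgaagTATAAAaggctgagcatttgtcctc
Usp17la (Dub1), chr7:104856915-104856994, plus strand: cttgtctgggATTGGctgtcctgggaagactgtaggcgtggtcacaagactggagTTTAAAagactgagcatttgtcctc

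Among the 6 pairs of these promoters, local alignments of 206 to 284 bases were identical at 86.4% (Usp17lc and Usp17lb) to 96.8% (Usp17ld and Usp17lc) of positions. The motif TATAAA, searched on both strands, was found in 3 of 4 family promoters and in 13.6% of all 32851 promoters of that length. Usp17la had TTTAAA at the same place, 45 bases from the start of the CCAAT box as in the other 3. Relative to the annotated start, TATAAA began at -110 in Usp17ld, -88 in Usp17lc and -31 in Usp17lb. CCAAT was found in 4 of 4 family promoters and in 37.4% of all. The motif CAAGGTCA, bound by orphan nuclear receptors such as Esrrb and Nr5a2, was found in 0 of 4 and in 1.6% of all, and the motif of the 2-cell factor Dux in 0 of 4 and in 0.2% of all. The 4 family promoters are near copies, so their matches are not independent of each other. A match is only a description of these letters, and none says nothing about binding elsewhere.

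Most of the family was higher in the established knockout lines: in KO/Y over −Tx ES cells, 7 of 8 family probes were called higher by limma and the other, Dub1 at 2263, did not pass, where 4.59% of all probes tested were higher and 3.25% were lower. Of the called probes, the 5 that were well above background on every array rose 3.36-fold (Dub2a) to 26.9-fold (Usp17l5 at 2328). Dub1a and Dub3 were not well above background on some −Tx arrays, so their rise is given as a lower limit, with such an array set to the dimmest signal well above background on it, or to the probe's own where that was higher: at least 32.2-fold for Dub1a and 20.6-fold for Dub3. The median log2 fold change over the 8 probes was 4.51, or 4.35 with both at their limit, against -0.0649 over all probes. Dub1a and Dub3 passed the filter on dim probes through their +Tx and KO/Y arrays, where their signals were higher. Neither was tested with the filter on all 9 arrays, under which 5 of 6 family probes were called higher in KO/Y over −Tx. This comparison shares its −Tx arrays with the one on which the family was chosen, and KO/Y over +Tx shares its +Tx arrays, so neither is independent of that choice. With slide as a block, in which the slide difference comes from the +Tx arrays alone, the 7 probes were again called, with log2 fold changes of 1.88 (Dub2a) to 5.08 (Dub1a). Against +Tx ES cells, 3 of 8 were called higher in KO/Y ES cells (2.24% of all probes were higher and 1.29% were lower). Whatever the fold, 7 of 8 had an adjusted p under 0.05 there, as did 7723 of all 31171 probes. The median log2 fold change there was 0.98, against 0.00332 over all probes.

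**Figure D1:**
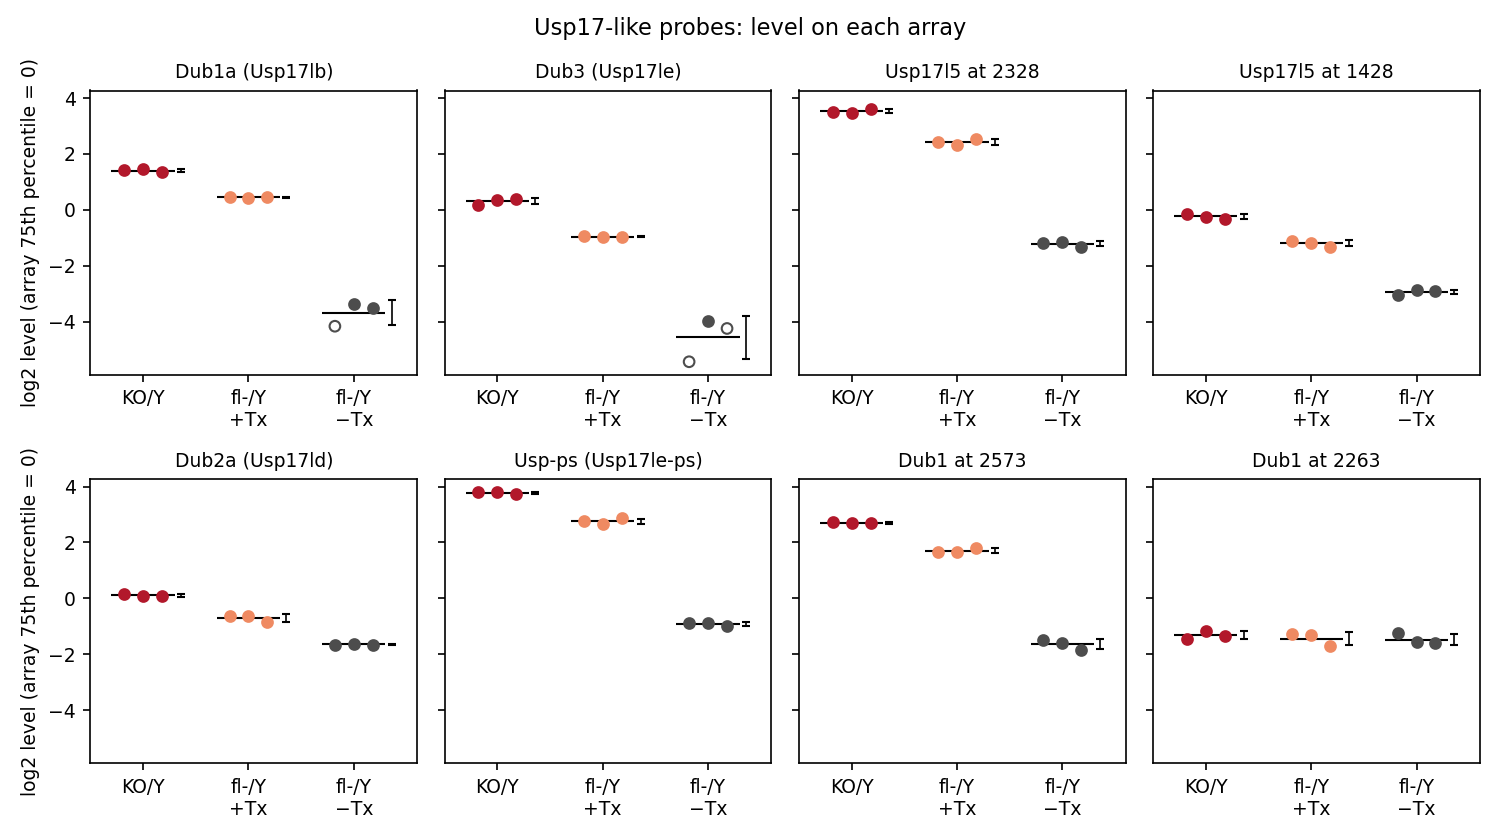
Log2 level of each of the 8 Usp17-like probes on each array, with 0 at the 75th percentile of the array. Points are arrays, open where the probe was not well above background, lines are means and bars are SD over 3 arrays. In 7 panels the KO/Y points lie above the +Tx points and these above the −Tx points, and only for Dub1 at 2263 do the groups overlap.

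Dub1a (Usp17lb) had the largest fitted fold of all family probes in KO/Y over −Tx in this scaling, though not with normexp background correction. Its log2 level was 1.41, 1.45 and 1.34 in KO/Y ES cells, 0.46, 0.44 and 0.45 in +Tx ES cells, and -4.16, -3.35 and -3.50 in −Tx ES cells. The groups did not overlap, the +Tx arrays lay close together, and the probe stood well above background on every array but the lowest −Tx one. Dub1a was at least 32.2-fold higher in KO/Y than in −Tx ES cells (fitted log2 fold change 5.07, standard error 0.18, adjusted p = 2.52e-07 by limma). With normexp it was 9.38-fold higher and still called, below Usp17l5 at 2328 (19.6-fold), Usp-ps (18.9-fold) and Dub1 at 2573 (13.7-fold). Dub1a was 1.93-fold higher in KO/Y than in +Tx ES cells (log2 0.95, adjusted p = 0.00615), which is short of 2-fold.

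Dub1 (Usp17la) gave unlike readings by its probes. At position 2573, its log2 level was 2.72, 2.68 and 2.68 in KO/Y ES cells, 1.65, 1.65 and 1.81 in +Tx ES cells, and -1.47, -1.61 and -1.84 in −Tx ES cells. The groups were far apart, and the log2 fold change in KO/Y over −Tx was 4.33 (standard error 0.0981, adjusted p = 2.08e-08). At position 2263 of the same transcript record it was -1.45, -1.16 and -1.34 in KO/Y ES cells, -1.27, -1.32 and -1.72 in +Tx ES cells, and -1.24, -1.56 and -1.61 in −Tx ES cells. These groups overlapped throughout, although the probe was well above background on every array. Its log2 fold change in KO/Y over −Tx was 0.16, with a 95% interval of -0.18 to 0.50 (adjusted p = 0.437), which lies apart from the interval of 4.11 to 4.56 for the probe at 2573. The fold in KO/Y over +Tx was 1.98 at position 2573 (adjusted p = 0.000267) and 1.09 at position 2263 (adjusted p = 0.602). The probe at 2573 is a near copy of those of Usp17l5 at 2328 and Usp-ps, so its rise cannot be tied to Dub1 alone. A run of 20 bases of the probe at 2263 was also found in 19 of 32851 promoter windows of RefSeq, and for each of the other 7 probes in 0. The part of that in the values was not tested.

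Usp17l5 (Usp17lc) was higher by both of its probes. At position 2328, its log2 level was 3.50, 3.48 and 3.62 in KO/Y ES cells, 2.44, 2.32 and 2.54 in +Tx ES cells, and -1.18, -1.15 and -1.32 in −Tx ES cells. At position 1428, it was -0.13, -0.24 and -0.32 in KO/Y ES cells, -1.11, -1.17 and -1.32 in +Tx ES cells, and -3.03, -2.87 and -2.91 in −Tx ES cells. The groups were apart by both probes, while the sizes of the differences were not alike. The signal was 26.9-fold higher in KO/Y than in −Tx ES cells at position 2328 (95% interval 4.56 to 4.93 on the log2 scale, adjusted p = 8.61e-09 by limma) and 6.52-fold higher at position 1428 (2.52 to 2.89, adjusted p = 1.01e-07). The probe at 2328 is a near copy of that of Usp-ps and the probe at 1428 of that of Dub2a, so neither ties its rise to Usp17l5 alone. With normexp background correction these folds were 19.6 and 3.23. The folds in KO/Y over +Tx were 2.14 (adjusted p = 6.19e-05) and 1.96 (adjusted p = 0.00013), so that the probes differed in their rise above −Tx ES cells but were near each other in this comparison.

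Dub2a (Usp17ld), whose probe is nearly that of Usp17l5 at 1428, had the smallest fold of the 7. Its log2 level was 0.15, 0.09 and 0.07 in KO/Y ES cells, -0.62, -0.62 and -0.86 in +Tx ES cells, and -1.65, -1.63 and -1.65 in −Tx ES cells. The groups did not overlap and the −Tx arrays lay close together. Dub2a was 3.36-fold higher in KO/Y than in −Tx ES cells (log2 1.75, 95% interval 1.57 to 1.93, adjusted p = 1.06e-06), an interval below that of Usp17l5 at 1428. Against +Tx ES cells it was 1.75-fold higher in KO/Y ES cells (adjusted p = 0.000247).

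Dub3 (Usp17le) carries the name of the human enzyme known for acting on CDC25A. Its log2 level was 0.18, 0.36 and 0.39 in KO/Y ES cells, -0.92, -0.97 and -0.97 in +Tx ES cells, and -5.43, -3.98 and -4.24 in −Tx ES cells. The groups were far apart, but only 1 of 3 −Tx arrays was well above background, and the spread there was the widest of any member (SD 0.776 over 3 arrays). Dub3 was therefore at least 20.6-fold higher in KO/Y than in −Tx ES cells (fitted log2 fold change 4.86, standard error 0.317, adjusted p = 9.40e-06, and 4.42 without the lowest −Tx array). With normexp background correction it was 6.63-fold higher and still called. It was 2.4-fold higher in KO/Y than in +Tx ES cells (adjusted p = 0.0209).

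The probe of Usp-ps (Usp17le-ps), annotated as a pseudogene, was close in its values to that of Usp17l5 at 2328. Its log2 level was 3.79, 3.79 and 3.72 in KO/Y ES cells, 2.75, 2.67 and 2.86 in +Tx ES cells, and -0.89, -0.87 and -0.98 in −Tx ES cells. No array of a group reached those of another. Usp-ps was 25.7-fold higher in KO/Y than in −Tx ES cells (log2 4.68, standard error 0.0699, adjusted p = 7.33e-09) and 2.01-fold higher in KO/Y than in +Tx ES cells (adjusted p = 4.49e-05). Since its probe differs from that of Usp17l5 at 2328 by 2 bases, transcripts of the pseudogene and of that gene cannot be told apart here.

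**Figure D2:**
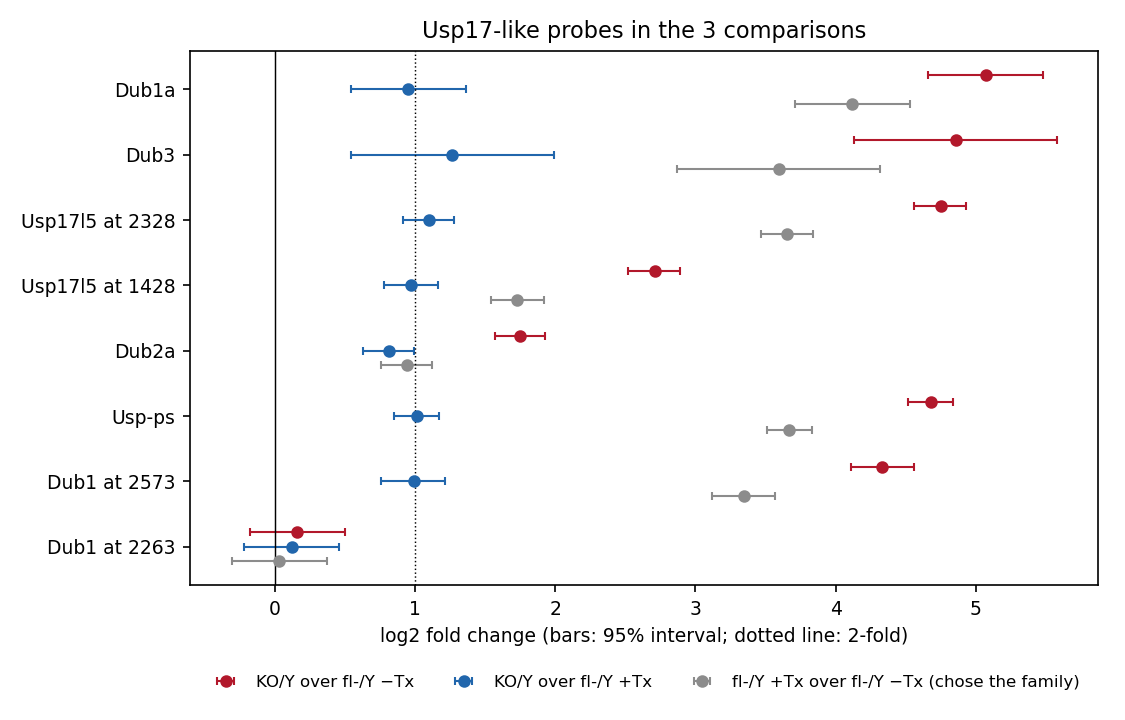
Log2 fold changes of the 8 Usp17-like probes with 95% intervals, for KO/Y over −Tx (red), KO/Y over +Tx (blue) and +Tx over −Tx (grey, the comparison that chose the family). The blue points of 7 probes lie between 0.81 and 1.26 while their red points run from 1.75 to 5.07, and Dub1 at 2263 is near 0 in each.

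By the fitted change in KO/Y over −Tx, the order was Dub1a, Dub3, Usp17l5 at 2328, Usp-ps, Dub1 at 2573, Usp17l5 at 1428, Dub2a and Dub1 at 2263. Neighbours among the first 5 did not differ beyond their 95% intervals, while each of the last 3 lay below the one before it. The order of the first 5 turned with normexp background correction, to Usp17l5 at 2328, Usp-ps, Dub1 at 2573, Dub1a and Dub3, and that of the last 3 did not. In KO/Y over +Tx, the intervals of the 7 probes other than Dub1 at 2263 all overlapped, over log2 fold changes of 0.81 to 1.26. The 3 calls in that comparison, Dub3, Usp17l5 at 2328 and Usp-ps, stood close to the limits. In the alternatives run, Dub3 was lost 8 times, each time by its adjusted p, and Usp-ps 3 times, each time by its fold. Dub3 was not tested with the filter on all 9 arrays, under which 2 of 6 family probes were called higher. Without +Tx array 2 or without KO/Y array 2, 1 probe, Usp17l5 at 2328, was still called. With slide as a block, Dub3 had an adjusted p of 0.0525, Usp17l5 at 1428 passed 2-fold and the count of calls was again 3. On the slide that holds both groups, 3 KO/Y arrays against 2 +Tx arrays, the count was 4, with Dub3 at a log2 fold change of 1.28 and Usp17l5 at 1428 at 1.02.

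As a description of the comparison that chose the family, in +Tx over −Tx ES cells 6 of 8 probes were past 2-fold higher, where 1.86% of all probes were, and 1.71% of all probes were called higher and 0.850% lower. The log2 fold changes were 4.12 for Dub1a, 3.67 for Usp-ps, 3.65 for Usp17l5 at 2328, 3.60 for Dub3 and 3.35 for Dub1 at 2573. They were smaller for Usp17l5 at 1428 (1.73) and Dub2a (0.94), and 0.03 for Dub1 at 2263. With normexp background correction 5 of 8 were past 2-fold, with 2.37 for Dub1a, 1.70 for Dub3 and 0.96 for Usp17l5 at 1428. On the linear scale, the rise of the mean in KO/Y ES cells above −Tx ES cells was 1.99 to 2.55 times the rise in +Tx ES cells over the 7 probes other than Dub1 at 2263, with a median of 2.23. This holds also for Usp17l5 at 1428 (2.37 times) and Dub2a (2.55 times), whose folds over −Tx were the smallest of the 7.

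The stretch of chromosome 7 between the first and the last family probe holds 116 probes of other genes, under 92 names, mostly too dim to test. The 17 that passed the filter, under 12 names, include olfactory receptor genes, the embryonic globin gene Hbb-bh1 and the Trim6, Trim12c and Trim34a genes. Of the 17, 0 were called higher in KO/Y over −Tx by limma (5 higher and 4 lower at an unadjusted p under 0.05), and 1 was lower, the olfactory receptor gene Olfr649, at -1.23 on the log2 scale (adjusted p = 0.00167). Over all probes tested, 4.59% were higher and 3.25% lower in that comparison. The median log2 fold change of the 17 was -0.13, and the highest was 0.58, for a Trim6 probe. Over +Tx ES cells, 0 of the 17 were called in either direction (2 higher and 2 lower at an unadjusted p under 0.05), with a median of 0.04, where 2.24% of all probes were higher and 1.29% lower. These neighbours were looked up after the values of the family had been seen.

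**Figure D3:**
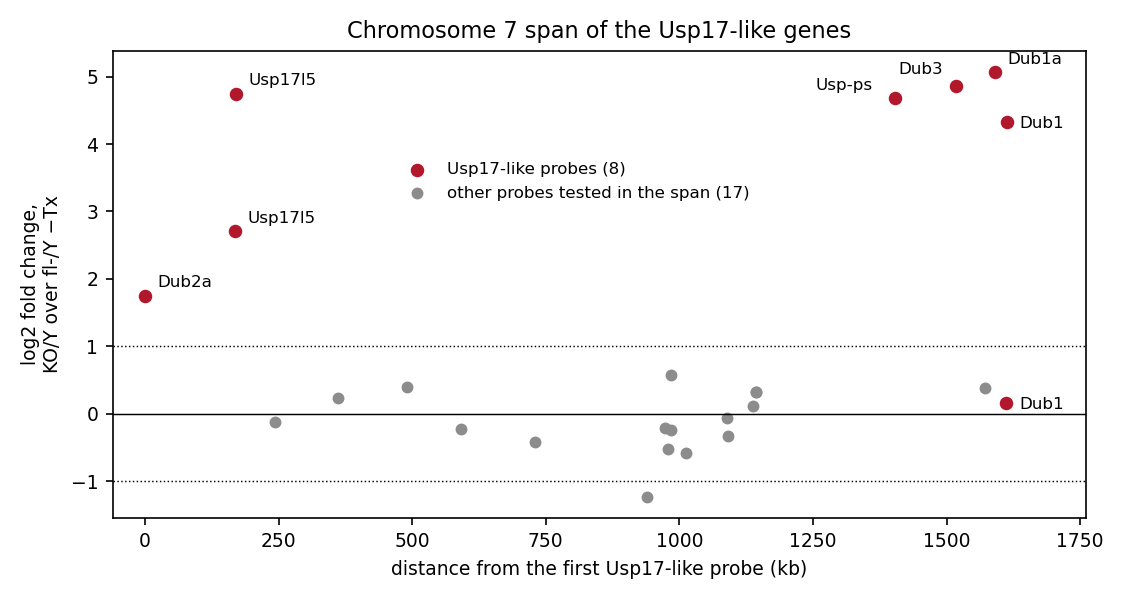
Log2 fold change in KO/Y over −Tx ES cells against distance from the first Usp17-like probe, in kb, for the 8 family probes (red) and the 17 other probes tested in the same span (grey). Dotted lines mark 2-fold in each direction. The 7 called family probes lie at 1.75 or above, at both ends of the span, and the grey points between -1.23 and 0.58.

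Of 51 other ubiquitin-specific protease genes, all of them relatives in enzyme class outside the Usp17-like family, 44 were tested. By limma, 0 were called higher and 1 was lower in KO/Y over −Tx. Calls among all probes tested made up 4.59% (higher) and 3.25% (lower) in that comparison. Before adjustment, 7 of the 44 rose and 18 fell with p under 0.05. After adjustment, 5 rose and 18 fell within that limit whatever the fold, and 14120 of all 31171 probes met it. The median log2 fold change of the 44 was -0.19. The gene called was Usp51, known in human cells for removing ubiquitin from histones, at a log2 fold change of -1.37 with an adjusted p of 3.49e-05. Usp51 was again the gene called in KO/Y over +Tx, with -1.08 (adjusted p = 0.000351), and with normexp background correction it passed 2-fold in neither comparison (-0.92 and -0.70). In KO/Y over +Tx, 0 were called higher (5 at an unadjusted p under 0.05), and the median was -0.12. Over all probes, 2.24% were higher and 1.29% lower there. In +Tx over −Tx, 0 of the 44 were called (5 higher and 12 lower at an unadjusted p under 0.05), where 1.71% of all probes were higher and 0.850% lower.

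Of 12 genes whose human proteins are known as substrates of USP17 or DUB3, all were tested. Such proteins are controlled after translation, so their RNA bears on the levels of the transcripts only. Snai1, a transcription factor gene of the epithelial-mesenchymal transition, was higher in KO/Y than in −Tx ES cells by 1.01 on the log2 scale (adjusted p = 4.69e-06 by limma), and 0 were called lower (4 at an unadjusted p under 0.05). Over all probes tested, 4.59% were higher and 3.25% lower there, so 1 call among 12 genes does not set the list apart. The call of Snai1 was lost with normexp background correction and with slide as a block. Cdc25a, the phosphatase gene that promotes entry into S phase, had -0.79 (adjusted p = 6.32e-05), short of 2-fold. The median was -0.01. Over +Tx ES cells, 0 of 12 were called (2 higher and 4 lower at an unadjusted p under 0.05), where 2.24% of all probes were higher and 1.29% lower. In +Tx over −Tx likewise 0 were called (5 higher and 2 lower), where 1.71% of all probes were higher and 0.850% lower.

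**Figure D4:**
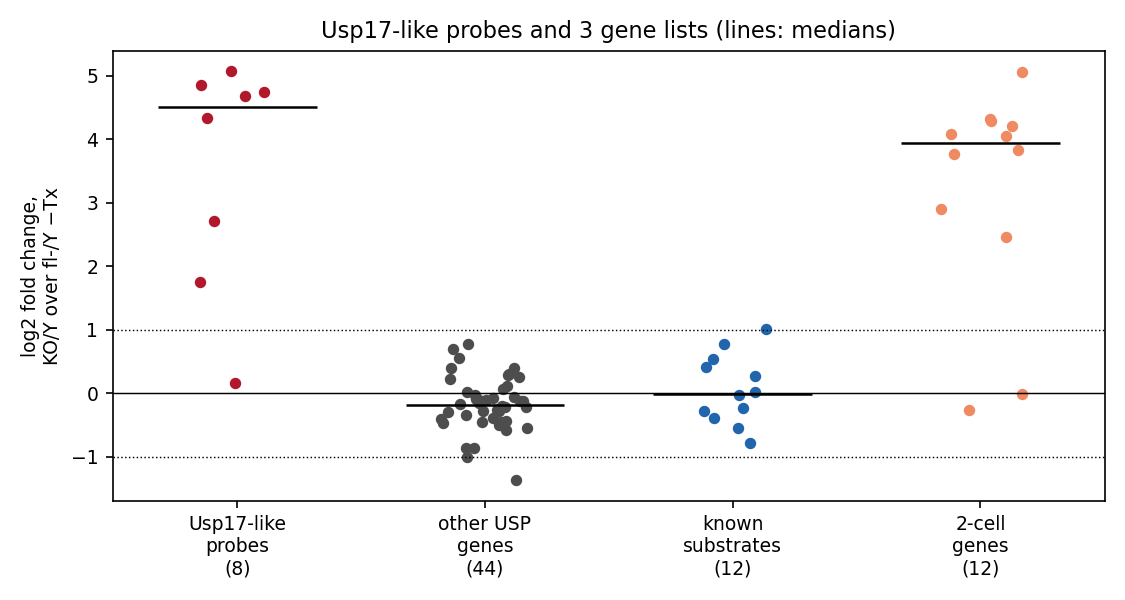
Log2 fold change in KO/Y over −Tx ES cells for the 8 Usp17-like probes, 44 other ubiquitin-specific protease genes, 12 genes of known substrates and 12 genes of the 2-cell embryo. Each point is a probe or gene, lines are medians (4.51, -0.19, -0.01 and 3.94) and dotted lines mark 2-fold.

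Of 16 genes of the 2-cell embryo outside the family, 12 were tested. In KO/Y over −Tx, 10 were called higher, where 4.59% of all probes were, with a median log2 fold change of 3.94. Zfp352 (-0.01) and Sp110 (-0.26) were not called. The study had already reported Zscan4c, Tcstv1 and Thoc4/Gm4340 as up-regulated on its arrays, so the list is not an independent test. Of the 10, the largest were Tcstv1 with 5.06, Gm4340 with 4.32, Tcstv3 with 4.29 and Zscan4e with 4.21. Only 9 of the 12 were well above background on all −Tx arrays. Folds of the others, Tcstv3 among them, are limited by −Tx signals near background. On all +Tx arrays 10 of the 12 were well above background, and on all KO/Y arrays 12. Not all of the 12 would have passed the filter on dim probes without the KO/Y arrays. Calls over +Tx can therefore also rest partly on +Tx signals near background. With normexp background correction Tcstv3 had 2.59, and 9 of 12 were called, Tdpoz4 (0.84) being lost. With the filter on all 9 arrays, 7 of 9 were called. Over +Tx ES cells, 4 were higher in KO/Y ES cells, where 2.24% of all probes were. These were Tcstv3 by 1.86, Tdpoz3 by 1.83, Tcstv1 by 1.53 and Tdpoz2 by 1.13, and the median of the 12 was 0.77. With normexp background correction, Tdpoz3 (0.75) and Tdpoz2 (0.64) fell short of 2-fold, and with the filter on all 9 arrays Tcstv3 and Tdpoz3 were not tested, so that 2 were called in each case.

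The probes outside the family whose pattern was most like it were named by the root mean square difference of log2 levels over the 9 arrays, each centred on its mean, to the average of Usp17lb (Dub1a), Usp17l5 at 2328, Usp-ps and Dub3. They were E330014E10Rik (0.123, r = 0.998), Gm4312 (0.132), the transcript identifier TC1776362 (0.158), Gm2016 (0.161) and AA684185 (0.173). The array annotation places the last 4 of these outside chromosome 7 and E330014E10Rik on a sequence not assigned to a chromosome. Within the family, the probes that did not enter the average differed from it by 0.302 (Dub1 at 2573), 0.991 (Usp17l5 at 1428), 1.41 (Dub2a) and 2.04 (Dub1 at 2263). A difference under 0.5 was met by 91 of 31171 probes and r over 0.95 by 764. All these arrays share their groups, so such values describe a common pattern over 3 groups and no more.

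Markers of other cells also differed between the groups, though not all in the same way. The summed level of 7 genes of fibroblast feeder cells (Col1a1, Col1a2, Col3a1, Thy1, Postn, Lum and Dcn), in multiples of the 75th percentile, was 370 to 418 on KO/Y arrays, 309 to 328 on +Tx arrays and 254 to 268 on −Tx arrays, and none was at 0. In KO/Y over −Tx, 7 of 7 had an adjusted p under 0.05, as did 14120 of all 31171 probes. Of the 7, 1 was called higher, Lum (log2 fold change 1.12, adjusted p = 3.08e-05), where 4.59% of all probes were. Of 4 genes of primitive endoderm (Gata4, Gata6, Sox7 and Sox17), 4 were called higher in KO/Y over −Tx and over +Tx, where 4.59% and 2.24% of all probes were. Their summed level was 1.5 to 2.05 in KO/Y ES cells, 0.359 to 0.451 in +Tx ES cells and 0.256 to 0.346 in −Tx ES cells. All 4 were well above background on every KO/Y array, but only 1 on every +Tx array and 2 on every −Tx array. Not all of them would have passed the filter on dim probes without the KO/Y arrays, and their calls rest partly on signals near background. In +Tx over −Tx, 0 of these 4 were called (1 higher at an unadjusted p under 0.05). The part of feeder cells or of primitive endoderm in the family's values was not tested.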

How the data were processed

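RNA of 3 groups of ES cells was hybridised to 9 Agilent mouse arrays, 3 per group, given as 3 samples. The intensity values deposited by the authors are processed Cy3 intensities per spot on a linear scale, made with Agilent Feature Extraction 10.7.3.1, which subtracts the background. A series-wide list deposited by the authors holds 1 linear signal per group. Its correlation with the mean log2 scanner signal of each group was 1.0000, and the log2 medians were -3.01 for KO/Y, -3.04 for +Tx and -3.04 for −Tx. The study names NIA Array Analysis Software, with limits of 2-fold and a false discovery rate of 0.05, and other settings not given in the sources used here. No source ties an array to a replicate number, and array numbers here follow places on the slides.

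Intensities were log2-transformed (R 4.3.3), less the 75th percentile of the array. Outlier spots (117 to 178 per array) were left out and spots of a probe averaged. Probes well above background on all arrays of at least 1 group were tested with limma 3.58.1 over 9 arrays (files were read with data.table, version 1.17.8). Genes of a list stand by their brightest probe. The precision is limited by 3 arrays per group. The fit was tested on simulated data.

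Every member probe is named, with the 5 probes nearest to the family profile, up to 4 called genes with the largest change per list and comparison, and marker lists. The members and lists were chosen with earlier results of these data known. Probe sequences come from the scanner files, and promoters from RefSeq (GRCm38.p6), aligned with Biopython 1.88. Alternatives were background correction by normexp (offset 50), 2 other scalings, no or a stricter filter, slide as a block, 1 slide only, 1 value per gene, outliers kept, 6 arrays only, a variance of at least that of 500 neighbours, each array left out, and that list of group signals.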

Additional observations from a re-analysis of the deposited data

How the results depend on the processing

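In KO/Y over −Tx, the 7 calls of the family were kept under every alternative that was tested and held the probe, 7 were past 2-fold in the list of group signals, which allows no test, and log2 fold changes were lowest with normexp background correction. In KO/Y over +Tx the count of calls was 1 to 3 with each array left out, 1 without +Tx array 2 or without KO/Y array 2, and the log2 fold change of Dub1 at 2263 was -0.02 (without +Tx array 3) to 0.21. Leaving out arrays gave 7 calls throughout in KO/Y over −Tx and 6 to 7 probes past 2-fold in +Tx over −Tx. With normexp, the other ubiquitin-specific proteases had 0 calls in KO/Y over −Tx and 0 in KO/Y over +Tx, the substrates 0 in KO/Y over −Tx, and the 2-cell genes 2 in KO/Y over +Tx. Quantile normalization and no filter each gave 2 calls among the other proteases in KO/Y over −Tx, the filter on all 9 arrays gave 2 among 2-cell genes in KO/Y over +Tx, and slide as a block gave 0 among the substrates in KO/Y over −Tx. The cause was not tested. The fit on 1 slide could not be made for KO/Y over −Tx, which share no slide. Folds of Dub3 and Dub1a are limited by −Tx signals near background. No paired analysis was possible because no source ties an array to a replicate number.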
